A study of Piriqueta cistoides subsp. caroliniana with 18 samples.

Results

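The genes CAB3 and PSAD were followed across the leaves of a perennial herb through every array probe that carried either name as its only gene symbol. The series is recorded under Piriqueta cistoides subsp. caroliniana, and its plants were of the caroliniana and viridis morphotypes and their hybrid. The rule found 6 probes among the 9600 of the array, 4 for CAB3 (Gm01099, Gm05769, Gm05985 and Gm06115) and 2 for PSAD (Gm06019 and Gm10356). All 6 passed the filter on missing values, which asks for a value on at least 14 of the 18 arrays and which 7880 probes passed. The probes are cDNA clones of soybean, so a name is that of the soybean gene and each value comes from hybridisation across species. The probes of 1 gene may also take up transcripts of its relatives, and they are not separate measurements of the condition.

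CAB3 encodes an antenna protein of photosystem II that binds chlorophylls a and b, collects light and passes the energy on to the reaction centre. PSAD encodes subunit D of photosystem I, which sits on the stromal side and forms the docking site for ferredoxin, the carrier of the electrons that photosystem I delivers. Both proteins are encoded in the nucleus and imported into the chloroplast, and transcripts of the CAB family are well known to follow light and the circadian clock in leaves. The hour of leaf harvest is not given in the sources used here.

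Leaves came from 18 plants raised as cuttings in sand in a greenhouse held near 35 °C by day and 27 °C by night with 12 h of light. The plants formed 6 groups of 3, namely caroliniana, viridis and the hybrid of these morphotypes, each either well-watered or taken through 4 drought cycles in 36 days; ages and clonal origin of the cuttings are not given in the labels. Each array compared 1 plant in the dye Cy5 with 1 plant in Cy3, and the 18 arrays close into a loop in which every plant lies on 2 arrays, once in each dye. Values are log ratios, read here as Cy5 over Cy3. The files state neither this direction nor the base of the logarithm, and reading the ratio the other way would turn the sign of every value below. An effect is therefore given in log-ratio units, as drought minus well-watered, and "positive side" is meant on this reading.

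The arrays had medians between -0.0451 and 0.0668 and held 5962 to 8134 values each. The submitters marked 1 array, viridis drought plant 3 against hybrid drought plant 2, as bad. They marked another, caroliniana drought plant 2 against caroliniana well-watered plant 1, as best. Below, the marked array means the one marked bad. Many of the results moved when viridis drought plant 3 or plant 2 of the well-watered hybrids was left out. Several results that rest on these plants are given with and without them, and others only with all plants. No guard cell, vascular or trichome marker fixed for the leaf matched a symbol on the array (0 of 6, 0 of 9 and 0 of 4), so the tissue label could not be checked against such markers. In whole leaves a change in the share of a cell type and a change of RNA per cell cannot be told apart.

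The most direct view of drought comes from 6 arrays on which both plants belonged to 1 morphotype and differed in treatment. They use 12 different plants, and the drought plant was labelled with Cy5 on 1 and with Cy3 on the other array of each morphotype. With all signs turned to drought minus well-watered, CAB3 Gm05985 had 1.23 and 1.45 in caroliniana, 1.91 and 2.47 in the hybrid, and 1.89 and 1.94 in viridis. CAB3 Gm06115 had 1.54 and 1.72 in caroliniana, 2.45 and 1.58 in the hybrid, and 1.72 and 2.45 in viridis. Both probes thus lay on the positive side on 6 of 6 arrays, and the lowest value of each came from caroliniana.

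The other 2 CAB3 probes had gaps. CAB3 Gm01099 had 1.95 and 2.55 in caroliniana and 4.71 on the 1 viridis array with a value, that of drought plant 1 against well-watered plant 2. CAB3 Gm05769 had 0.434 and 1.01 in caroliniana and 2.54 and 3.66 in viridis. All values present were positive, and neither probe had a value on either of the hybrid arrays. For both probes the viridis values exceeded the caroliniana values, with 1 or 2 arrays on each side and no test.

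PSAD moved far less. PSAD Gm06019 had 0.183 and 0.494 in caroliniana, 0.184 and 0.522 in the hybrid, and 0.264 and 0.299 in viridis, all on the positive side. PSAD Gm10356 had -0.0489 and -0.153 in caroliniana, -0.0598 and -0.256 in the hybrid, and -0.0667 and 0.136 in viridis, so that 5 arrays lay slightly below 0 and 1 above it. The 2 probes of the same gene therefore lay on different sides of 0 on 5 of these 6 arrays.

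**Figure D1:**
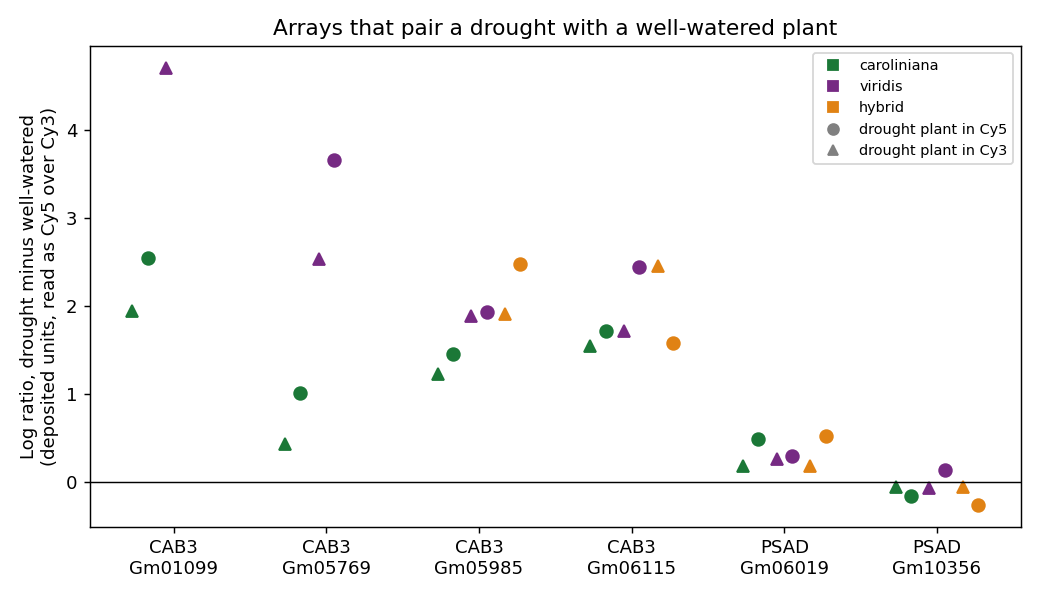
Each point is 1 of the arrays with both treatments of 1 morphotype; the vertical axis is the log ratio as drought minus well-watered, colours mark morphotypes, and circles and triangles mark the dye of the drought plant. All CAB3 points lie above 0 (0.434 to 4.71), those of PSAD Gm06019 lie close above 0 (0.183 to 0.522), and those of PSAD Gm10356 lie on both sides of 0.

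The mean over the 6 arrays was 1.81 ± 0.432 (SD, n = 6) for CAB3 Gm05985, 1.91 ± 0.424 for CAB3 Gm06115, 0.324 ± 0.149 for PSAD Gm06019 and -0.0747 ± 0.130 for PSAD Gm10356. A two-sided exact sign-flip permutation test gave p = 0.03125 for the first 3 of these probes, the smallest p that 6 arrays allow, and p = 0.25 for PSAD Gm10356. After Benjamini-Hochberg adjustment over these 4 tests the values were 0.0417 for each of the first 3 and 0.25 for the last. Among the 7505 probes with a value on all 6 arrays, 2.92% were positive on every one, and 3 of the 4 members with all 6 values were among them. The test carries no model of the loop, but it uses only plants 1 and 2 of each group.

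The remaining 12 arrays paired plants of the same treatment and show how far CAB3 differed without a contrast of treatments. For CAB3 Gm06115 the size of the log ratio on these arrays, whatever its sign, had a median of 0.263 and reached 1.64. Its 2 largest values, -1.36 and 1.64, were both on arrays with viridis drought plant 3, and on the other 10 the size did not exceed 0.545. CAB3 Gm05985 had a median size of 0.336, with -1.59 and 1.63 on the arrays of that plant and sizes up to 0.964 on the other 10. All 6 direct drought values of both probes exceeded the largest same-treatment value outside that plant, and 4 of 6 exceeded the largest of all 12. For PSAD Gm06019, in contrast, the same-treatment arrays reached a size of 0.546, that of hybrid against caroliniana well-watered plants 3, above all 6 of its drought values. For PSAD Gm10356 they reached 0.284.

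The loop as a whole was then fitted for all 7880 tested probes with 6 group means, a dye term and the plant as a random effect (limma, Benjamini-Hochberg adjustment over all tested probes, threshold 0.05). Averaged over the 3 morphotypes, the positive calls made up 1.50% of all tested probes and the negative ones 0.444%, and all 4 CAB3 probes were among the positive calls. Their effects were 3.56 ± 0.519 (SE) for Gm01099, 2.38 ± 0.446 for Gm05769, 1.79 ± 0.164 for Gm05985 and 1.88 ± 0.167 for Gm06115. With log base 2 these would be 11.8-fold, 5.22-fold, 3.47-fold and 3.68-fold differences, and with the natural logarithm 35.2-fold, 10.8-fold, 6.02-fold and 6.55-fold. By the limma test the adjusted p was 0.0013, 0.00851, 3.77e-06 and 3.29e-06 in the same order. The median effect of all tested probes was -0.0219, and 95% of them had effects of a size under 0.246. Gm05985 and Gm06115 were still called whichever of the 18 plants was left out (1.68 to 1.90 and 1.70 to 2.10). The call of Gm01099 ended without viridis well-watered plant 2 (2.64, limma adjusted p = 0.0531), and that of Gm05769 without any of viridis plants 1 and 2 of either treatment (1.75 to 2.23, limma adjusted p = 0.0637 to 0.0980).

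Neither PSAD probe passed. PSAD Gm06019 had 0.339 ± 0.0883 (limma adjusted p = 0.0627), a 1.26-fold difference with base 2, and its 95% interval before adjustment ran from 0.151 to 0.526. PSAD Gm10356 had -0.0879 ± 0.0629 (adjusted p = 0.713), with an interval of -0.221 to 0.0454. Single plants and scaling decided the side of the threshold for Gm06019. It passed without hybrid well-watered plant 2 (0.412, limma adjusted p = 0.00153), without viridis well-watered plant 3 (0.333, 0.0264), with arrays scaled alike (0.353, 0.0231) and with weighted, independent arrays (0.348, 0.00858). Its effect kept its sign without each of the 18 plants (0.266 to 0.412). For Gm10356 the range without 1 plant was -0.136 to -0.0507.

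**Figure D2:**
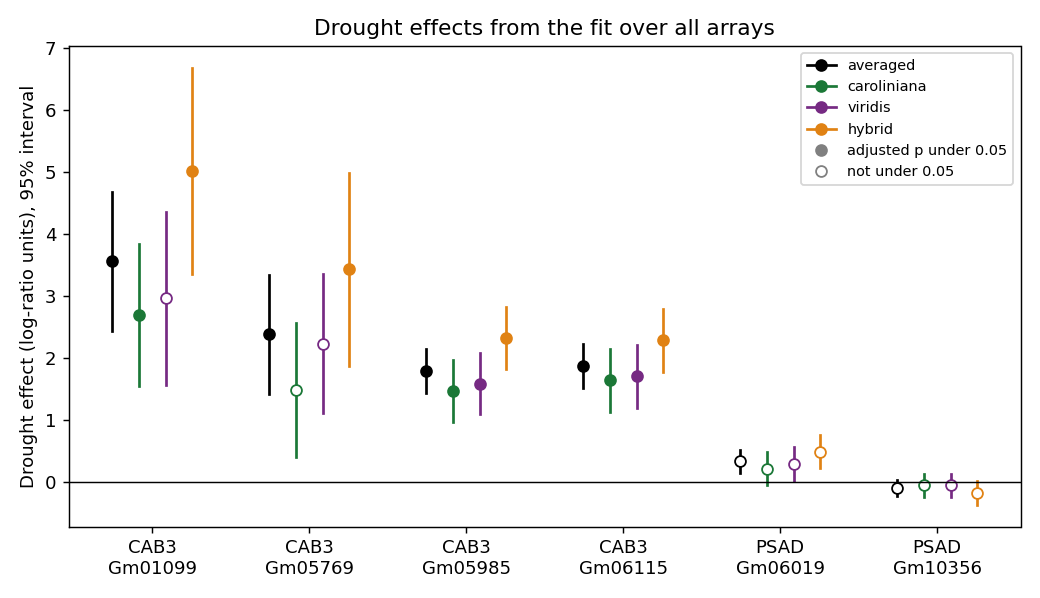
The vertical axis gives the fitted drought effect in log-ratio units with its 95% interval before adjustment, for each probe averaged over morphotypes and in each morphotype; filled points passed an adjusted p of 0.05. The averaged CAB3 effects lie between 1.79 and 3.56, against 0.339 and -0.0879 for the PSAD probes.

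The gap between the genes was estimated within the arrays. On each array the mean log ratio of the PSAD probes was subtracted from that of the CAB3 probes present, and the same loop was fitted to the difference. The drought effect of CAB3 exceeded that of PSAD by 1.91 ± 0.228 (SE, 95% interval 1.43 to 2.40), and by 1.71 ± 0.130 (1.44 to 1.99) with the 2 CAB3 probes that had values on every array. The gap was 1.55 in caroliniana, 1.77 in viridis and 2.41 in the hybrid, and each interval lay above 0 (0.862 to 2.24, 1.08 to 2.46 and 1.72 to 3.11). On the direct hybrid arrays only the 2 complete CAB3 probes entered the mean. With those 2 probes throughout, the gap was 1.47, 1.53 and 2.14 in the same order. It was not refitted without viridis drought plant 3. Array probes differ in how strongly they respond, so the gap is a difference between log ratios and not between transcript amounts.

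Probes of the same gene also differed from each other. The averaged drought effect of CAB3 Gm01099 exceeded that of Gm05769 by 1.82 (95% interval 1.41 to 2.22), that of Gm05985 by 1.86 (1.05 to 2.66) and that of Gm06115 by 1.63 (0.725 to 2.54), each over the arrays on which both had a value. CAB3 Gm05985 and Gm06115 were close, with a difference of -0.0848 (-0.407 to 0.237). For Gm05769 the interval against Gm05985 ran from -0.246 to 1.23 and that against Gm06115 from -0.478 to 1.02. The PSAD probe Gm06019 exceeded Gm10356 by 0.426 (0.171 to 0.682), most in the hybrid (0.665, interval 0.296 to 1.03), while the intervals in caroliniana (-0.0958 to 0.634) and viridis (-0.0196 to 0.712) included 0.

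Across the arrays the 4 CAB3 probes followed each other. Pearson's r lay between 0.902 and 0.957 over the 6 pairs of CAB3 probes, on 15 to 18 arrays. Fitted through the origin, the slope of Gm06115 on Gm05985 was 0.953, whereas that of Gm05985 on Gm01099 was 0.482. PSAD Gm06019 followed CAB3 with r of 0.508 to 0.762, and PSAD Gm10356 ran against it with r of -0.491 to -0.168. The 2 PSAD probes ran against each other (r = -0.587, n = 18 arrays). These correlations are descriptions, since the arrays share plants around the loop and all probes share the array, its labelling and its normalisation.

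**Figure D3:**
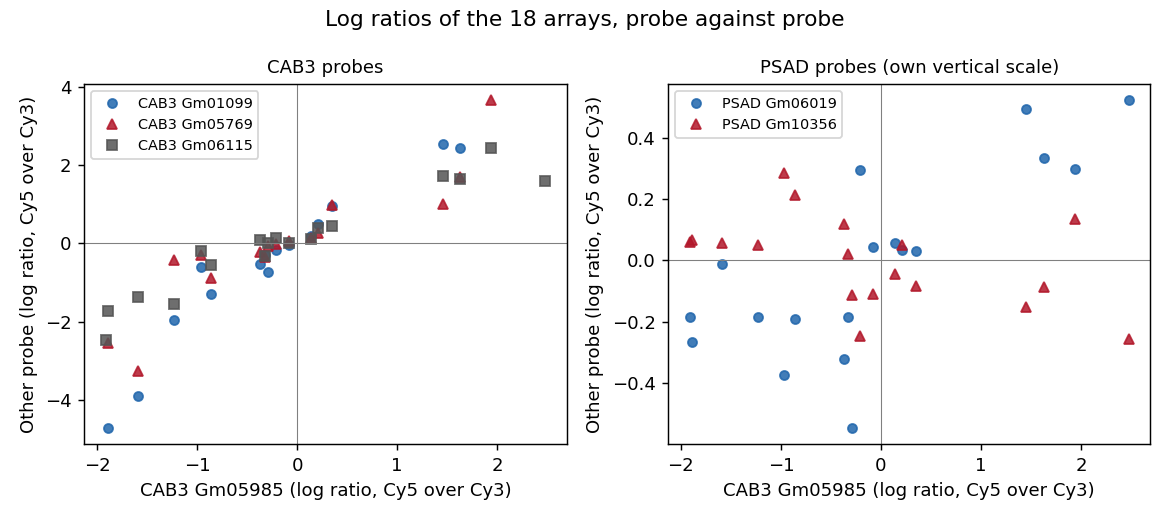
Each point is 1 array; the horizontal axis is the log ratio of CAB3 Gm05985 and the vertical axis that of another probe, CAB3 on the left and PSAD on the right on a narrower scale. The other CAB3 probes rise with Gm05985 (r from 0.912 to 0.957), PSAD Gm06019 follows more loosely (0.762), and PSAD Gm10356 slopes the other way (-0.491).

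Within caroliniana, 0.698% of all tested probes were called positive and 0.102% negative, and 3 of the 4 CAB3 probes were called positive. The drought effect was 2.70 for Gm01099 (limma adjusted p = 0.0370), 1.47 for Gm05985 (0.00431) and 1.64 for Gm06115 (0.00229), while Gm05769 had 1.49 (0.592). The call of Gm01099 ended without a dye term (2.79, limma adjusted p = 0.0550) and without any 1 of 11 plants (2.11 to 3.42), those of Gm05985 and Gm06115 each without 2. Caroliniana drought plant 2 ended all 3 (2.73, 1.38 and 1.56). PSAD Gm06019 had 0.222 and PSAD Gm10356 had -0.0472, neither past the test (both limma adjusted p = 0.9996), and Gm10356 turned to 0.0235 without that same plant.

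In viridis, 0.673% of all tested probes were called positive and 0.0381% negative, and the calls among the members were those of CAB3 Gm05985 (1.59, limma adjusted p = 0.00198) and Gm06115 (1.71, 0.00153). Gm01099 had 2.97 ± 0.645 (SE, adjusted p = 0.0622) and Gm05769 had 2.24 ± 0.518 (0.0786). Both passed with independent arrays (limma adjusted p = 0.0204 and 0.0295), without the marked array (0.0211 and 0.0121), with scaled arrays (0.0342 and 0.0308) and with weighted, independent arrays (0.00206 and 0.0114). Without viridis drought plant 3 all 4 CAB3 probes passed, with 3.65, 2.61, 1.86 and 2.04 (limma adjusted p = 0.00287, 0.00423, 3.10e-04 and 8.02e-05). The Gm05985 call ended without any of viridis plants 1 and 2 of either treatment (1.39 to 1.57), and the Gm06115 call without well-watered plant 1 or drought plant 2 (1.36 and 1.37). PSAD Gm06019 had 0.297 (adjusted p = 0.872) and PSAD Gm10356 had -0.0490 (0.997).

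In the hybrid, 1.75% of all tested probes were called positive and 0.317% negative, and all 4 CAB3 probes were among the positive calls. The balance of all calls depended on 1 plant, since the positive share was 84.7% of 163 calls with all plants and 40.0% of 1147 without plant 2 of the well-watered hybrids (54.3% of 503 with weighted, independent arrays). Gm05985 had 2.33 (limma adjusted p = 2.20e-05) and Gm06115 had 2.29 (2.76e-05), and both passed without any 1 of the 18 plants (2.16 to 2.59 and 2.08 to 2.66). Gm01099 had 5.01 (0.00247) and Gm05769 had 3.43 (0.0215). Since neither of these last probes had a value on a direct hybrid array, their hybrid effects were carried through the parental groups along the loop. Gm05769 lost its call without any 1 of 8 plants (2.39 to 3.87), whereas Gm01099 kept it without each of the 18 (3.90 to 6.02). Without viridis drought plant 3 the hybrid effect was 4.03 for Gm01099 (limma adjusted p = 0.00343) and 2.39 for Gm05769 (0.0683). PSAD Gm06019 had 0.497 ± 0.127 (adjusted p = 0.0561) and passed without hybrid well-watered plant 2 (0.703, limma adjusted p = 6.06e-04) or viridis well-watered plant 3 (0.519, 0.0176). It also passed with independent arrays (0.0474), scaled arrays (0.0186), complete probes only (0.0481) and weighted, independent arrays (limma adjusted p = 0.00149), while PSAD Gm10356 had -0.168 (0.418).

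Whether drought acted differently on the morphotypes was tested with the interaction term. No probe of the 7880 passed this F test with limma (0% called, 185 with an unadjusted p under 0.05), and the adjusted p was 0.998 for each of the 6 members. Weighted, independent arrays gave 60 calls and the fit without hybrid well-watered plant 2 gave 124, none of them a member. Before adjustment p was 0.0153 for CAB3 Gm01099, 0.0516 for Gm05769, 0.020 for Gm05985, 0.0889 for Gm06115, 0.225 for PSAD Gm06019 and 0.482 for PSAD Gm10356. The hybrid effect exceeded that of caroliniana by 2.32, 1.95, 0.858 and 0.641 for the CAB3 probes in the order of their numbers, and that of viridis by 2.05, 1.20, 0.735 and 0.577, with no call (limma adjusted p = 0.902 and 0.871). With weighted, independent arrays 171 of the 7880 probes were called for hybrid minus viridis and 55 for hybrid minus caroliniana. Among the CAB3 differences 1 was called, that of Gm05985 between hybrid and viridis (1.14, limma adjusted p = 0.0392). In that setting the array of hybrid drought plant 3 against viridis drought plant 3 had the highest weight (2.93).

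The excess of the hybrid over viridis rested to a large part on 1 plant. Without viridis drought plant 3 it was 0.383, -0.214, 0.305 and 0.0380, and the excess over caroliniana was 1.39, 1.05, 0.689 and 0.428. On its 2 arrays this plant had CAB3 log ratios of -3.89, -3.26, -1.59 and -1.36 against hybrid drought plant 2, and hybrid drought plant 3 had 2.44, 1.69, 1.63 and 1.64 against it. The first array is the one marked bad and the second carries no such mark, and both place the plant below the hybrid drought plants for all 4 probes. With the marked array alone left out, the excess over viridis was 1.35 for Gm01099 and 0.426 for Gm05769.

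**Figure D4:**
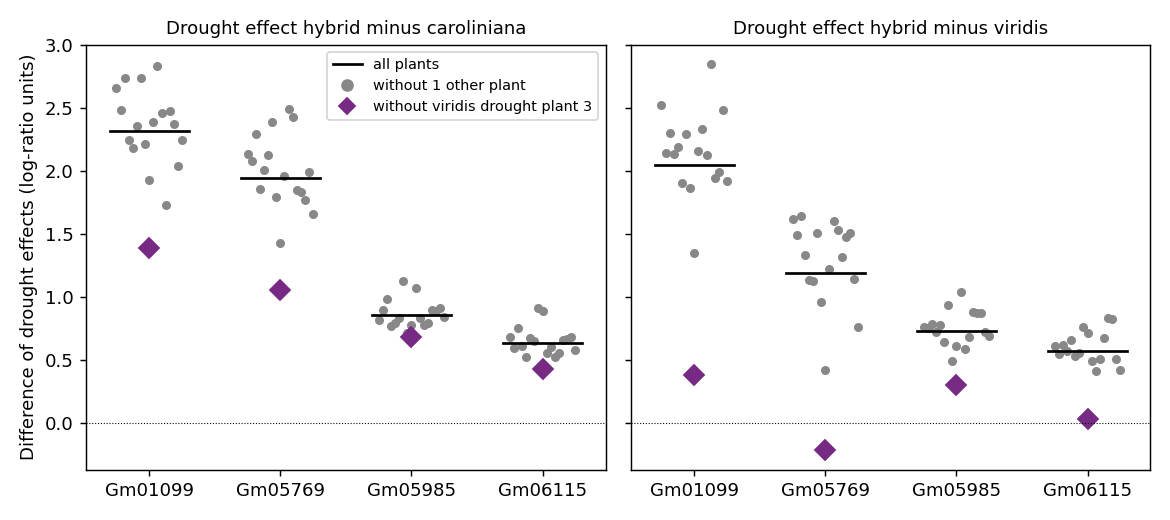
The vertical axis gives the difference between the drought effects of the hybrid and of caroliniana (left) or viridis (right) for the 4 CAB3 probes, in log-ratio units; bars use all plants, grey points leave out 1 other plant, and diamonds leave out viridis drought plant 3. Against viridis the diamonds lie at 0.383, -0.214, 0.305 and 0.0380, below all other points of each probe.

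Group levels, set so that the 6 groups average 0 for each probe, had the hybrid under drought highest for all 4 CAB3 probes. It lay at 3.14 for Gm01099, 2.25 for Gm05769, 1.55 for Gm05985 and 1.47 for Gm06115. The next level, a parental drought group, was lower by 1.91, 1.55, 0.887 and 0.693, with 95% intervals of 0.818 to 3.01, 0.458 to 2.64, 0.400 to 1.37 and 0.198 to 1.19. These intervals are not adjusted, and the neighbours were taken in their observed order. The lead was smaller in the means of the plant values solved from the loop, described below for the 2 complete CAB3 probes. For Gm05985 these means under drought were 1.09 in the hybrid, 0.784 in caroliniana and 0.593 in viridis. For Gm06115 they were 1.09, 0.855 and 0.462 in the same order. Without viridis drought plant 3 the hybrid stayed highest for the 4 probes, but its lead over viridis under drought was 0.433, 0.0509, 0.513 and 0.191, and all 4 intervals included 0. Its lead over caroliniana under drought was then 1.05, 0.810, 0.652 and 0.393, and the interval of Gm05769 included 0 (-0.0855 to 1.71). Without plant 2 of the well-watered hybrids the intervals of both leads stayed above 0 for all 4 probes. With all plants, caroliniana and viridis under drought came next and did not differ beyond their intervals (for Gm05985 0.661 and 0.483, a difference of 0.179 with an interval of -0.301 to 0.659). The step from the lower of them to the highest well-watered group was 2.45, 1.49, 1.26 and 1.40, and each of these intervals excluded 0. The well-watered groups were not separated from their neighbours, with viridis lowest for all 4 probes (-1.99, -1.54, -1.11 and -1.13).

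For PSAD no neighbouring pair of levels differed beyond its interval. Gm06019 ran from 0.225 in the hybrid under drought through 0.176 in caroliniana and 0.106 in viridis under drought to -0.0452, -0.191 and -0.272 in well-watered caroliniana, viridis and hybrid. The 3 drought groups lay above the 3 well-watered groups. Gm10356 spanned only 0.0709 in well-watered viridis to -0.126 in the hybrid under drought.

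The hybrid was also set against the mean of its parents. In well-watered plants the difference was -0.144, 0.0140, 0.180 and 0.181 for the CAB3 probes, and under drought 2.04, 1.58, 0.976 and 0.790. None of the members passed. In well-watered plants 1 probe of the 7880 did (0.0127%), and under drought none did (0%, with 777 at an unadjusted p under 0.05), where the CAB3 probes had limma adjusted p of 0.340 to 0.432. With weighted, independent arrays 54 probes passed, and all 4 CAB3 probes were called under drought. Without viridis drought plant 3 the 4 values under drought were 0.742, 0.430, 0.583 and 0.292. Between caroliniana and viridis over both treatments the CAB3 differences were 0.383, 0.302, 0.241 and 0.227 and did not pass, and without that plant they were -0.113, -0.125, 0.0532 and -0.00718.

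For the probes with values on every array the loop was also solved for single plants, with the plant values centred on 0. In CAB3 Gm05985 the drought plants had 0.310, 0.872 and 1.17 in caroliniana (numbers 1 to 3), 1.46, 0.945 and -0.627 in viridis, and 1.31, 0.875 and 1.09 in the hybrid. The well-watered plants ran from -1.68 to -0.338 with a median of -0.666. Of the 9 drought plants 8 lay above the highest well-watered plant, and viridis drought plant 3 lay among the well-watered plants. Gm06115 gave the same picture. Its drought plants had a median of 0.885 and its well-watered plants -0.733, with -0.729 for viridis drought plant 3 and the other 8 above the highest well-watered plant (-0.363).

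In PSAD Gm06019 the drought plants ran from -0.00471 to 0.337 with a median of 0.176 and the well-watered plants from -0.534 to 0.146 with a median of -0.198. The highest well-watered value was that of hybrid plant 2, the other hybrid well-watered plants being at -0.534 and -0.523, and 6 of 9 drought plants lay above it. The lowest drought plant was again viridis drought plant 3. In PSAD Gm10356 the treatments overlapped throughout, from -0.376 to 0.249 under drought and from -0.314 to 0.318 in well-watered plants. Array error runs along the loop into all plant values, so that the counts are not over independent measurements.

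**Figure D5:**
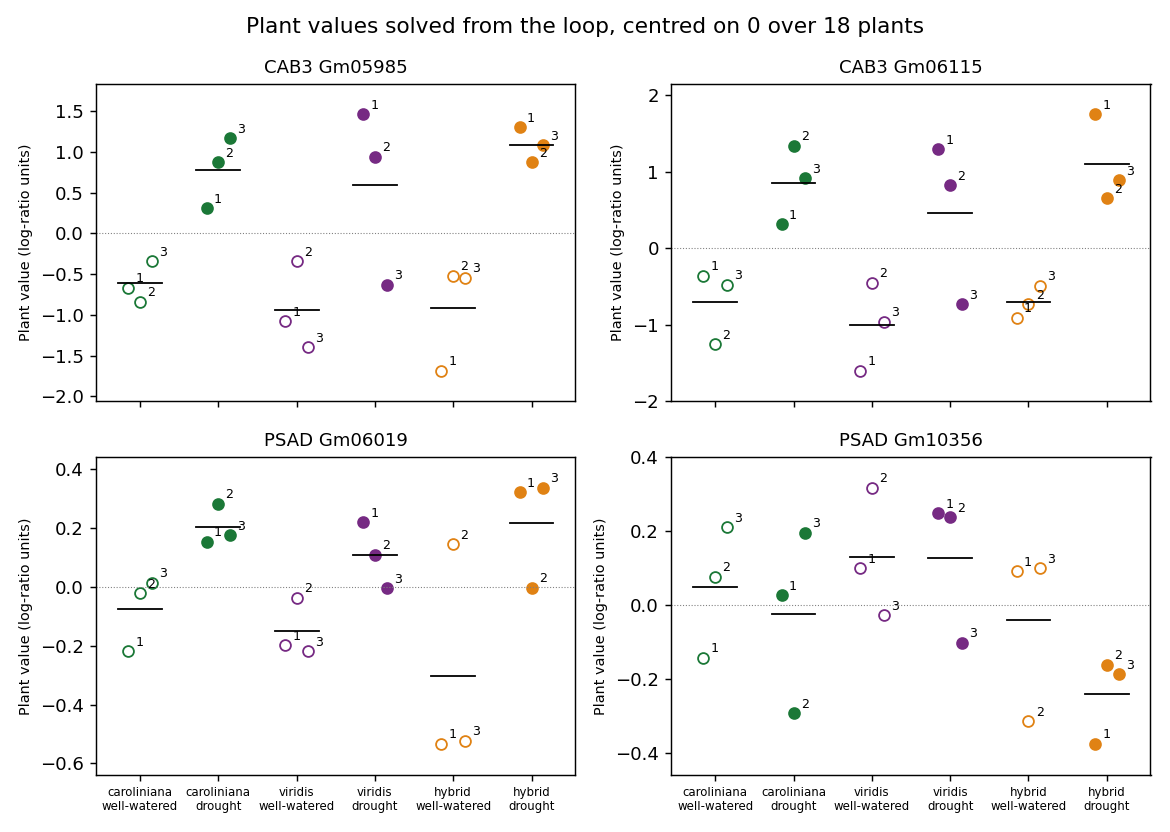
Each numbered point is 1 plant, drought filled and well-watered open, with the group mean as a bar; the vertical axis is the plant value in log-ratio units, centred on 0 over the 18 plants and with its own scale in each panel. In both CAB3 panels 8 of 9 drought plants lie above every well-watered plant and viridis drought plant 3 does not, while in PSAD Gm10356 the treatments overlap.

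Few other symbols of photosynthesis and chlorophyll genes were found on the array, where 546 of the 9600 probes carried exactly 1 symbol. Such genes among the other probes could not be counted. Of 78 symbols listed for light harvesting, photosystems, chlorophyll synthesis and carbon fixation, 4 were on the array, with 6 probes, of which 4 were tested. Those of ELIP, an early light-induced protein, and 1 probe of HEMB, the aminolevulinate dehydratase of the tetrapyrrole pathway, had no value on any array. For the averaged drought effect 1 of the 4 was called positive and 0 negative, against 1.50% and 0.444% of all probes, and their median effect was 0.346. The call was that of CHLH Gm06139, the subunit H of magnesium chelatase, which commits protoporphyrin to chlorophyll, at 0.775 ± 0.0992 (limma adjusted p = 1.24e-04). CHLH Gm06047 had 0.717 ± 0.181 (0.0538), HEMB Gm17841 had -0.216 ± 0.0834 (0.331), and GSA1, the aminotransferase that makes aminolevulinate, had -0.0260 ± 0.0606 (0.935). In the hybrid 2 of the 4 were called positive, against 1.75% of all tested probes, in caroliniana 1 against 0.698% and in viridis 1 against 0.673%.

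To see which other probes ran like CAB3, the mean of its probes on each array was correlated with every other tested probe. Among probes with a gene name the highest Pearson's r was 0.806 for VLXB, a lipoxygenase, then 0.795 for CYP98A2, a P450 enzyme that makes phenylpropanoids, 0.785 for CHLH Gm06139, 0.756 for IF7GT, an isoflavone glucosyltransferase, and 0.689 for ADR11. The averaged drought effect passed for CYP98A2 (0.932) and CHLH Gm06139 (0.775) but not for VLXB (0.257), IF7GT (0.276) or ADR11 (0.141). The lowest r was -0.799 for WRKY53, a transcription factor of the WRKY family, then -0.747 for AAT and -0.736 for DR1. Of these, DR1 passed for drought (-0.272), while WRKY53 (-0.112) and AAT (-0.192) did not. Probes without a symbol came far closer, with 0.983 for Gm05865, 0.981 for Gm05767 and 0.979 for Gm03420, and drought effects of 3.34, 4.2 and 3.13. Of 7876 probes 19 had r above 0.9, none of them named. Of these, 12 lay in the stretch of clone numbers that holds CAB3 Gm05769, Gm05985 and Gm06115 (21 of 30 by Spearman's rho). The share of all tested probes in that stretch was not computed, and its bounds were set with earlier results of these data known. These counts are therefore descriptions only. With Spearman's rho CHLH led the named probes (0.806) and PSAD Gm06019 was the fifth (0.748). The leading probes without a symbol were then Gm12431 (0.992), Gm13870 (0.988) and Gm03420 (0.987).

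For the mean of the PSAD probes the closest named probes were PM37 (0.682), SAMDC, the S-adenosylmethionine decarboxylase of polyamine synthesis (0.671), the catalase CAT5 (0.665), CHLH Gm06139 (0.644) and CAB3 Gm05985 (0.643). Without a symbol Gm04160 (0.861), Gm05988 (0.790) and Gm16728 (0.789) came first, and no probe exceeded 0.9. The lowest were SCAM-4, a calmodulin (-0.773), the G-box binding factor GBF2 (-0.728) and IFS2, an isoflavone synthase (-0.727). With Spearman's rho CHLH Gm06139 came first (0.870), CHLH Gm06047 next (0.781) and both complete CAB3 probes were among the closest 5 (0.699 and 0.690). All of these are over 14 to 18 arrays that share plants, and they include the contrast of treatments. The mean joins PSAD probes that ran against each other (Pearson's r = -0.587), so it need not follow either probe. CAB3 Gm05985, for example, had r = 0.762 with PSAD Gm06019 and r = -0.491 with PSAD Gm10356. The lists therefore describe this mean and not a pattern shared by the PSAD probes.

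The members lay unevenly among probes that responded to drought when ordered by clone number. Among the 100 tested probes nearest in number to CAB3 Gm05769, members left out, 34% were called on the positive side for the averaged drought effect, and the share was 21% around CAB3 Gm05985, 18% around PSAD Gm06019 and 9% around CAB3 Gm06115, against 1.50% of all tested probes. Several of these windows overlap. Around CAB3 Gm01099 it was 0% and around PSAD Gm10356 1%. The PSAD probe with the higher estimate thus lay in the crowded range and the other outside it, while the CAB3 probe with the highest estimate lay outside. The clone numbers of VLXB (Gm05996) and CHLH (Gm06047 and Gm06139) also fell within windows around the members, while those of HEMB (Gm17841) and GSA1 (Gm17519) did not. The part of clone number in these results was not tested.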

How the data were processed

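The authors deposited 1 table of log ratios per array, recorded here as log2 because that base is usual; the base, the channel order and the normalisation are not given in the sources used here. Per the labels' protocols, 4 µg of total RNA was amplified and 3.5 µg of the amplified RNA labelled with Cy3 and Cy5. Plant codes in the array titles were checked against the dye, morphotype and treatment labels. Gene symbols came from the supplied probe table, and no sequence of these clones was used here. A generalised least squares model held 6 group means, a dye term and a random plant effect (variance ratio 0.2512, common to all probes). Its two-sided tests were moderated with limma 3.58.1 in R 4.3.3 (prior df 3.95) and adjusted by Benjamini-Hochberg over 7880 probes in each comparison. Missing values were left out, not imputed. Channel intensities were not used here and leave signal over background unknown; the number of arrays limits the precision. In a simulation of 7880 probes, 44, 96, 100 and 100% of 50 probes were called at averaged effects of 0.25, 0.5, 1 and 2. For effects in caroliniana alone the shares were 24, 74, 100 and 100%. There were 13 false calls among 275 averaged calls. All noise was normal and drawn from the fitted model, with no aberrant plant. More calls than the 153 of the data make the threshold looser, so these shares may be too high. Plants were not modelled as matched by number. In the solved plant values the median r was -0.102 over 45 same-number pairs, 13 of them over 0.1. These values leave no error apart from the plants, so they cannot show whether plants were matched. Figures used matplotlib 3.10.9. Named probes were the members, a list of 78 pathway symbols, and the 5 named and 3 unnamed most similar and 3 least similar probes. The members and lists were chosen with earlier results of these data known. Whether plants of 1 group are separate genotypes is not stated, so p-values speak for these plants and not for genotypes. Each p-value rests on the moderated residual variance of the probe, with a plant share set by the ratio common to all probes. A probe's own spread between plants was not estimated separately. For CAB3 Gm05985 the SD of the solved plant values ran from 0.215 (hybrid drought) to 1.09 (viridis drought).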

Additional observations from a re-analysis of the deposited data

How the results depend on the processing

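The positive sign of the averaged and within-morphotype CAB3 drought effects held in every alternative tried, and PSAD Gm06019 also kept its sign. Fitted as gene means over the probes present, CAB3 had an averaged effect of 2.04 (limma adjusted p = 6.48e-05) and PSAD 0.125 (0.355, although its interval before adjustment, 0.0191 to 0.231, lay above 0). Numbers of probes called over the array moved more. With arrays scaled to 1 median absolute deviation the averaged drought effect gave 245 calls in place of 153 and the hybrid 257 in place of 163. With weighted, independent arrays the counts were 302 (61.3% positive in place of 77.1%) averaged, 135 in caroliniana (69.6% positive in place of 87.3%), 189 in viridis (60.8% in place of 94.6%), 503 in the hybrid (54.3% in place of 84.7%), 55 and 171 for hybrid minus caroliniana and viridis, 60 for the interaction, 4 for caroliniana against viridis in well-watered plants, and 31 and 54 for the hybrid against its parents in well-watered plants and under drought. Without viridis drought plant 3 and plant 2 of the well-watered hybrids together, an alternative chosen after seeing the data, they were 304 (66.4% positive), 109, 93 (80.6%), 1130 (42.5%), 132, 197, 117 and 78 for the hybrid against its parents in well-watered plants. Without a dye term caroliniana gave 38. The single well-watered hybrid call became 0 without the marked array, with centred or scaled arrays, complete probes, the block or no dye term.

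Signs turned for some differences between morphotypes and for PSAD Gm10356. Without this pair of plants caroliniana minus viridis was -0.166, -0.154, -0.0283 and -0.0543 for the CAB3 probes in number order, the drought effect of hybrid minus viridis -0.121 for Gm05769 (1.20 with all plants) and -0.110 for Gm06115 (0.577), the well-watered hybrid against its parents -0.0765 for Gm05769 and -0.169 for Gm05985, and PSAD Gm10356 in viridis 0.0130. That well-watered difference was also -0.0266 (scaled), -0.0701 (block) and -0.0410 (weighted) for Gm05769 and -0.0172 (weighted) for Gm05985.

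With 1 plant left out the calls ranged from 100 to 373 (without hybrid well-watered plant 2, 59.0% positive) averaged, 4 to 106 in caroliniana, 14 to 86 in viridis, 65 to 1147 in the hybrid, 0 to 124 for the interaction, 0 to 130 and 0 to 218 for hybrid minus caroliniana and viridis, 0 to 5 for caroliniana against viridis in well-watered plants, and 0 to 101, 0 to 10 and 0 to 3 for the hybrid against its parents in well-watered plants, under drought and over both, and 0 to 3 against viridis over both. Differences whose sign turned ranged from -0.113 to 0.71, -0.125 to 0.50 and -0.00718 to 0.383 for caroliniana minus viridis (Gm01099, Gm05769, Gm06115), -0.214 to 1.64 for hybrid minus viridis (Gm05769), -0.385 to 0.381 and -0.0658 to 0.393 for the well-watered hybrid against its parents (Gm05769, Gm05985), and -0.0785 to 0.0235 for PSAD Gm10356 in caroliniana. With plant number as a replicate block, a pairing not established here, the averaged count was 176. Gm01099 in caroliniana then missed the threshold (2.72, limma adjusted p = 0.0540), as it did without a dye term (2.79, 0.0550). The cause of these changes was not tested.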
